A study of Mus musculus with 4 samples.

Results

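The Eph receptors, ephrins, semaphorins, plexins and neuropilins were evaluated in RNA-seq of basal and luminal epithelial cells sorted from the distal tips of the developing mouse prostate. The genes were chosen by symbol alone (Epha, Ephb, Efna, Efnb, Sema3 to Sema7, Plxna to Plxnd, Nrp1 and Nrp2), which gave 53 protein-coding genes of the 49671 genes in the table. Basal cells were EpCAM high and CD49f high, and luminal cells were EpCAM high and CD49f low. Both came from untreated CD-1 mice at postnatal day 10 to 13 and were represented by 2 libraries each, labelled basal 1 and 3 and luminal 3 and 2. The methods describe tips cut from the ventral lobes of several mice, and the labels do not tie a library to particular animals, so p-values measure the spread between these libraries. CD45, CD31 and CD140a were used to gate out immune, endothelial and mesenchymal cells before the sort.

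Eph receptors are receptor tyrosine kinases whose ligands, the ephrins, are themselves held on the surface of a neighbouring cell, by a lipid anchor in the A class and by a transmembrane segment in the B class. Both the receptor-bearing and the ligand-bearing cell can signal on contact, and in epithelia the pair is known for sorting cell populations and keeping boundaries between them. Semaphorins are secreted (class 3) or membrane-bound (classes 4 to 7) ligands of the plexins, receptors that act on small GTPases and the cytoskeleton, and most class 3 members also need a neuropilin as co-receptor. Both systems were described first in axon guidance and are also known from branching organs, and in the prostate they have been studied mostly in cancer cells.

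Depth differed between the cell types. One read was worth 6.26 and 6.49 normalized counts in the basal libraries and 19.4 and 31.2 in luminal replicates 3 and 2, so a luminal library held 643268 to 1036671 reads on genes against 3080222 to 3194246 in a basal library. A luminal value of 0 therefore allows up to 3 reads, or 58.1 normalized counts in luminal replicate 3 and 93.5 in luminal replicate 2. Depth and cell type cannot be told apart here. Intervals and floors given below cover counting error only. The labels matched the lineage markers: Krt5, a basal keratin, was at 18481 and 15824 normalized counts in basal cells and at 77 and 93 in luminal cells, and all 6 genes of the basal list were past 2-fold toward basal cells. The summed luminal list of 6 genes, of which Krt8, Krt18 and Krt19 were past 2-fold toward luminal cells, ran from 14779 to 18655 in basal and from 30446 to 49761 in luminal libraries. Transcripts of gated-out cells were nevertheless present. The summed fibroblast list of 6 genes, with none at 0 in any library, was at 100128 and 206090 in basal replicates 1 and 3 and at 70885 and 196201 in the luminal replicates 3 and 2. Pdgfra, which encodes CD140a itself, lay between 2575 and 8383. Dcn, a further gene of the list, was past 2-fold toward basal cells, at 45830 and 47724 against 5770 and 20256.

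Of the 53 genes, 48 passed a filter that asks for at least 10 in each library and an average of at least 20 in at least 1 cell type. Epha6 and Epha8 were at 0 in all 4 libraries, and Epha5, Efna3 and Sema4f stayed below the filter, at no more than 58 normalized counts in any library. The filter itself favours genes high in 1 cell type: 39 members passed it in both cell types, 8 in basal cells only and 1 in luminal cells only. By the ratio of group averages, 20 members were at least 2-fold higher in basal cells and 4 at least 2-fold higher in luminal cells, against 16.3% and 18.3% of all 18737 genes kept. The 20 included all 8 that passed in basal cells only (Ephb1, Efna4, Efnb3, Sema3e, Sema3g, Sema7a, Plxna4 and Plxnb3). The 4 included the 1 that passed in luminal cells only, Sema6b. Among the 39 that passed in both cell types, 12 were past 2-fold toward basal cells and 3 toward luminal cells. Of the 20, 3 (Ephb1, Efna4 and Sema3g) were at 0 in both luminal libraries with a basal average under the luminal floor. Among the 37 members averaging 100 or more over the 4 libraries, which is less open to that selection, 14 were past 2-fold toward basal cells (37.8%, against 12.8% of all genes at that level) and 3 toward luminal cells (8.11%, against 11.4%). The 14 still included Sema3e and Plxna4, which passed the filter in basal cells only. The members' median log2 fold change of luminal over basal was -0.80, or -0.56 with the 3 genes at 0 in both luminal libraries set to the bound that 3 reads allow, and the median of all genes kept was -0.10. In bulk libraries fewer cells expressing a gene and less RNA per cell cannot be told apart.

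The basal and luminal values did not overlap for 31 members, 26 with both basal libraries above both luminal ones (background 27.3%) and 5 with the reverse order (background 23.6%). The 26 included Ephb1, Efna4, Efnb3, Sema3e, Sema3g, Plxna4 and Plxnb3, which passed the filter in basal cells only. The 5 included Sema6b, which passed in luminal cells only. limma on log2 of the normalized count plus 1, with Benjamini-Hochberg adjustment over all genes kept, called 2 members higher in basal cells, Plxnb1 and Plxna1 (background 0.438%), and 0 higher in luminal cells (background 0.256%). At an unadjusted p under 0.05, limma gave 17 members toward basal cells (background 10.7%) and 1 toward luminal cells (background 7.82%). Among the 17 were Ephb1, Efna4, Sema3e, Sema3g, Plxna4 and Plxnb3, which passed the filter in basal cells only, with 1 luminal read or none. edgeR's quasi-likelihood test on the recovered reads called 7 members higher in basal cells (background 2.72%), Plxnb1, Plxna1, Plxna4, Sema3a, Sema4c, Sema6d and Epha2, and 0 in luminal cells (background 2.42%). Its unadjusted p was under 0.05 for 18 members toward basal cells (background 9.81%) and 2 toward luminal cells (background 9.36%). The 18 included Ephb1, Efna4, Sema3e, Plxna4 and Plxnb3. DESeq2 on the same reads called the same 7 (background 2.89%) and 0 in luminal cells (background 2.80%). Plxna4, among the 7, passed the filter in basal cells only. Of the 7, 4 (Sema3a, Sema6d, Plxna1 and Plxnb1) kept an edgeR adjusted p under 0.05 without each library in turn. With 2 libraries against 2, a two-sided exact permutation test of a single gene cannot give a p under 0.333.

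**Figure D1:**
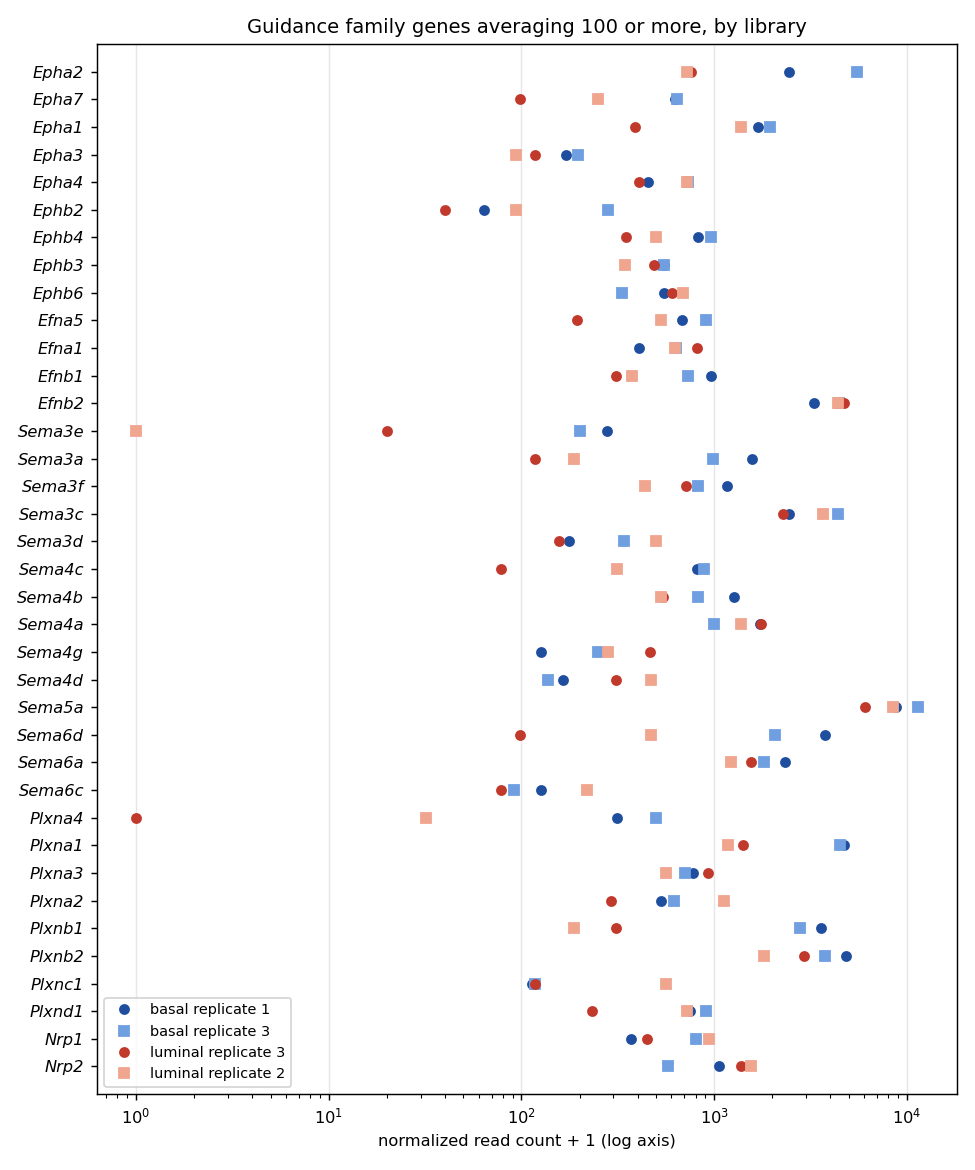
Normalized read count plus 1 (log axis) of the 37 members averaging 100 or more, 1 row per gene and 1 point per library, so that a gene at 0 sits at the left edge. Plxnb1, Plxna1, Sema6d, Sema3a and Epha2 have both basal points (blue) well to the right of both luminal points (red), whereas the points of Efnb2, Sema3c and Sema4a lie close together.

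Promoter windows, from 250 bases before to 50 after an annotated start, were available from RefSeq (build GRCm38.p6) for 47 of the 53 genes, 61 windows in all. Searching both strands, the GC box GGGCGG was found in 46 of these windows (75.4%, against 35.7% of all 32851 windows), and the median window held 20 CpG dinucleotides against 7. TATAAA was found in 1 window (1.64%, against 13.6%), and GGAATG, the core bound by TEAD factors, in 7 (11.5%, against 14.7%). These are letter matches, and windows of the same gene can overlap. The windows of 3 genes are printed to show this range, for a plexin and an Eph receptor that were higher in basal cells and for the neuropilin with the higher luminal values, with GGGCGG and GGAATG matches on either strand in capitals. The Plxnb1 window (chr9:109095186-109095485, plus strand) held 5 GC boxes, 1 GGAATG and 36 CpG. The Epha2 window (chr4:141300971-141301270, plus strand) held 1 GC box, 2 GGAATG and 10 CpG. The Nrp2 window (chr1:62703067-62703366, plus strand) held 5 GC boxes, 2 of them overlapping, and 37 CpG.
Plxnb1: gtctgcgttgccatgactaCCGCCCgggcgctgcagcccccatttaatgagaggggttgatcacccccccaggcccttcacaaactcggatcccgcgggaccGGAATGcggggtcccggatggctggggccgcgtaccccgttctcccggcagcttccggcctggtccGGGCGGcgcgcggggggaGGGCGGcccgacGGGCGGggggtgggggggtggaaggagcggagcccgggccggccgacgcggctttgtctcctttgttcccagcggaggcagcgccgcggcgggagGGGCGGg
Epha2: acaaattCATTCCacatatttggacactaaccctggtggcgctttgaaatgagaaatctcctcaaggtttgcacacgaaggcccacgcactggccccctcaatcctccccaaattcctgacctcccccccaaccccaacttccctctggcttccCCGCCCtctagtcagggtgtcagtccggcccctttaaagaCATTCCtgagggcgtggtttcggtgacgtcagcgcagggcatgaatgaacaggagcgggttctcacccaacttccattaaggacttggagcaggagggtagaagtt
Nrp2: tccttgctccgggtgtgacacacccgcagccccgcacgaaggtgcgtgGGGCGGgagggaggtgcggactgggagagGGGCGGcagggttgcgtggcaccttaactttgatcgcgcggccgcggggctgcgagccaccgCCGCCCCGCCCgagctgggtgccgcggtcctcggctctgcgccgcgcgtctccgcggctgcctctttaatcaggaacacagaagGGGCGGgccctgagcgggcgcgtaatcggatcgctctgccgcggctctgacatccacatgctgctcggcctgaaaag

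Of the 14 Eph receptors, 11 passed the filter, 6 were past 2-fold toward basal cells and none toward luminal cells, or 5 and 0 of the 9 averaging 100 or more. Ephb1, among the 6, passed in basal cells only. The shares of all genes were 16.3% and 18.3%, or 12.8% and 11.4% at that average. Epha2, a receptor of the A class found in many epithelia, had the highest level per length of the 14 in basal cells, 853 normalized reads per kb of exon, while in luminal cells its 157 lay under Epha1 (224) and Ephb6 (170). Its gene (chr4:141301240-141329384, GRCm38) was at 2449 and 5521 normalized counts in the basal libraries and at 755 and 717 in the luminal ones. The luminal pair was tight and the basal pair was spread more than 2-fold, but the groups lay apart. The limma log2 fold change was -2.32 ± 0.42 (SE, n = 2 and 2), with a limma adjusted p of 0.0688 and an edgeR adjusted p of 0.0056, and the latter was 0.0522 without luminal replicate 3. The ratio of averages was 5.41, and 3.33 without basal replicate 3.

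Epha7 was the other A receptor with separated groups and a large ratio, at 626 and 643 in basal and 97 and 249 in luminal libraries. The basal pair nearly coincided, and the luminal values rested on 5 and 8 reads. Its limma log2 fold change was -2.02 ± 0.57 (SE), with limma and edgeR adjusted p of 0.142 and 0.0578. Without luminal replicate 2 the ratio of averages of 3.67 became 6.54 and the edgeR adjusted p 0.0371, and without luminal replicate 3 they were 2.55 and 0.291. The edgeR adjusted p was 0.0979 and 0.132 without basal replicates 1 and 3. Epha1 was at 1678 and 1955 in basal cells and at 387 and 1371 in luminal replicates 3 and 2. Luminal replicate 2 approached the basal values, and the ratio of averages of 2.07 became 1.32 without luminal replicate 3 and 4.69 without luminal replicate 2, where the edgeR adjusted p of 0.218 became 0.0181. That p was 0.147 to 0.572 without any other library. The coding gene Zyx overlaps Epha1 on the other strand, and the use of strand in counting is not given in the sources used here, so reads of the pair may be mixed.

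Ephb4, a receptor of ephrin-B2 known from vessel boundaries, was at 820 and 961 in basal and 349 and 499 in luminal libraries. The groups did not overlap, and the ratio of 2.10 was 1.78 without luminal replicate 3, 1.93 without basal replicate 3 and up to 2.55 without the others (limma adjusted p of 0.181, edgeR 0.162). Its gene span overlaps Zan on the other strand. Ephb6, whose kinase domain lacks activity, had the reverse order, 551 and 331 in basal and 600 and 686 in luminal cells, with a limma log2 fold change of 0.59 ± 0.39 (SE, adjusted p of 0.468). Its level per length was 117 and 170 normalized reads per kb in basal and luminal cells, against 192 and 91.4 for Ephb4. Ephb2 was past 2-fold on averages, but its values of 63 and 279 in basal and 39 and 93 in luminal libraries overlapped, and the ratio of basal to luminal averages of 2.59 was 0.95 without basal replicate 3, 1.84 without luminal replicate 3 and 4.23 and 4.38 without basal replicate 1 and luminal replicate 2. Ephb1 was at 25 and 78 in basal cells and 0 in both luminal libraries, a basal average under the luminal detection floor of 75.8, so no fold is given. Epha4, Epha3 and Ephb3 were not past 2-fold, with log2 fold changes from -0.80 to -0.09 (the sign of Epha4 changed with the scaling), and Epha10 was at 50 to 156.

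Of the 8 ephrins, 7 passed the filter, Efna4 and Efnb3 through basal cells only. By the ratio of averages 4 were past 2-fold toward basal cells and 0 toward luminal cells, or 2 and 0 of the 4 averaging 100 or more, with 0 called by limma or edgeR (2 at an unadjusted limma p under 0.05, both toward basal cells, against 10.7% of all genes, and past 2-fold toward basal cells the share of all genes was 16.3%, or 12.8% at an average of 100 or more). Efnb2, the ligand of Ephb4 and of other B receptors, had the highest level per length of all 53 genes in luminal cells, 662 normalized reads per kb, and in the mean of the 4 libraries (613), while in basal cells its 564 lay under Epha2. It was at 3282 and 4456 in basal and 4686 and 4394 in luminal libraries. The groups overlapped, and its limma log2 fold change was 0.25 ± 0.24 (SE, adjusted p of 0.609). Efna1, a ligand of Epha2, was the A ephrin with the highest level per length, at 407 and 630 in basal and 813 and 623 in luminal libraries (log2 fold change 0.49 ± 0.37, adjusted p of 0.517). The groups of both ligands overlapped, while those of their receptors Epha2 and Ephb4 were separated with higher basal values.

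Efnb1 had separated groups, 964 and 734 in basal and 310 and 374 in luminal libraries, with a ratio of averages of 2.48 and a limma log2 fold change of -1.30 ± 0.34 (SE, adjusted p of 0.120, edgeR 0.0991). Efna5 was at 676 and 903 in basal and 194 and 530 in luminal libraries, and its ratio of 2.18 was 1.49 without luminal replicate 3, 1.87 without basal replicate 3, 2.49 without basal replicate 1 and 4.07 without luminal replicate 2. Efnb1 was the ephrin whose 2-fold difference held without each library, among those averaging 100 or more. Efnb3 was at 138 and 143 in basal cells and at 0 and 62 in luminal cells, where only 2 reads were found, and the pooled read ratio of 5.89 had a 95% interval from 1.54 to 50.2. Efna4 was at 100 and 19 in basal and 0 in both luminal libraries, again with a basal average under the luminal floor. Efna2 stayed between 31 and 78.

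**Figure D2:**
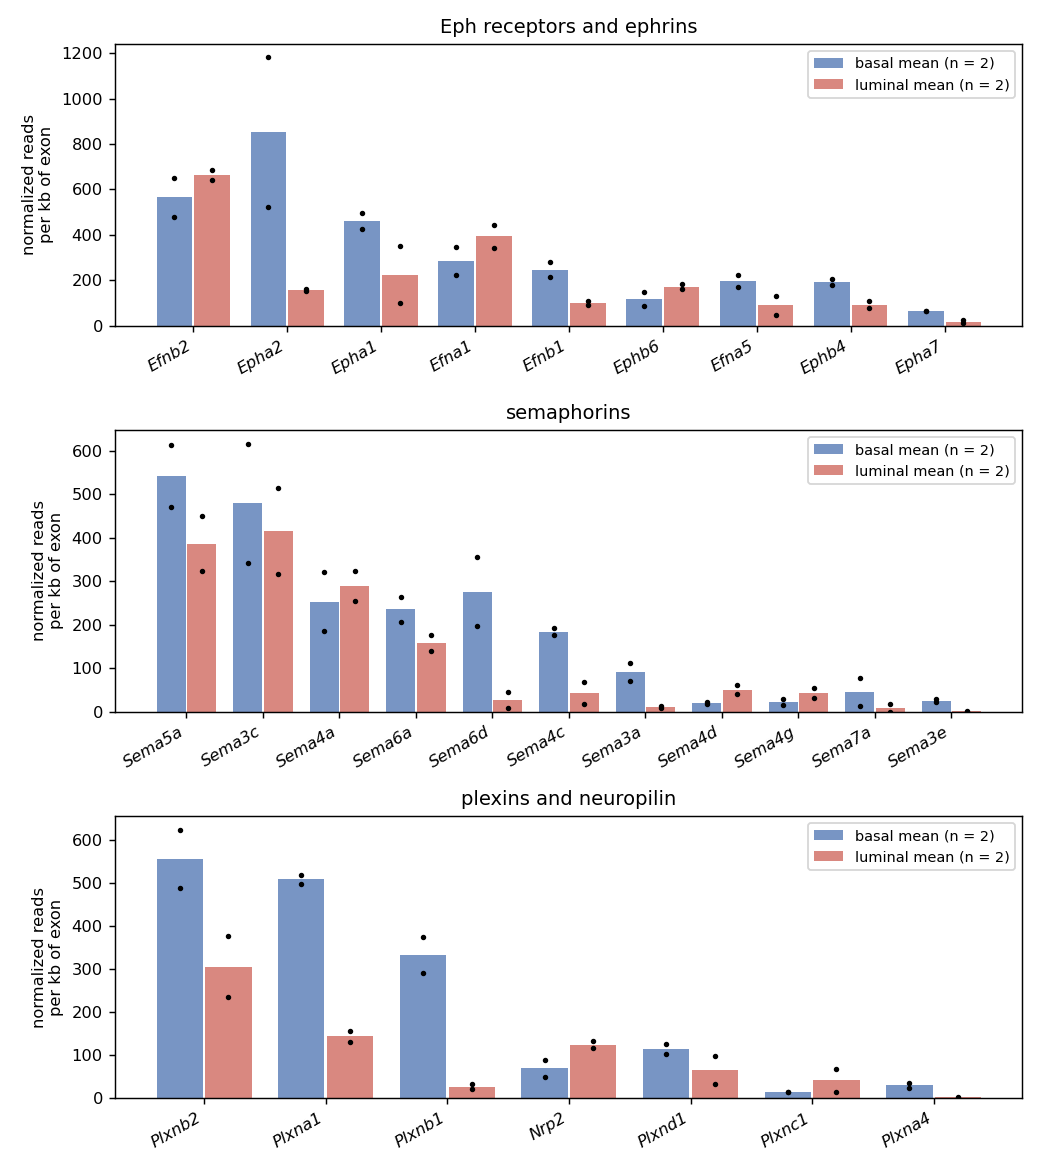
Normalized reads per kb of exon for the members described by name, with bars for the mean of 2 libraries, points for each library, blue for basal and red for luminal cells. Epha2 (853 against 157), Plxna1 (508 against 143) and Plxnb1 (332 against 25.9) have the tall blue and short red bars, while Efnb2, Sema5a and Sema3c are high in both cell types.

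Of the 7 class 3 semaphorins, the secreted ligands that act through neuropilins and plexins, all passed the filter and 3 were past 2-fold toward basal cells, or 2 of the 5 averaging 100 or more (16.3% and 12.8% of all genes). Of the 3, Sema3e and Sema3g passed in basal cells only, and Sema3e was also among the 2. Sema3a, the repellent for which the class is best known, was at 1566 and 987 in basal cells and at 116 and 187 in luminal cells (chr5:13125414-13602565, GRCm38). The groups were far apart, on 250 and 152 basal reads against 6 and 6 luminal ones. The limma log2 fold change was -3.07 ± 0.45 (SE), with an adjusted p of 0.0627 by limma and 0.0023 by edgeR, and the edgeR value stayed at or under 0.0330 without each library. Sema3e, the ligand of Plxnd1, was at 276 and 201 in basal cells and at 19 and 0 in luminal cells, which is 1 luminal read. The pooled read ratio was 20.1 with a 95% interval from 3.50 to 804, and the edgeR adjusted p was 0.0518, or 0.0473 without basal replicate 3 and 0.102 to 0.122 without any other library. Sema3g was at 31 and 19 in basal and 0 in both luminal libraries, below the luminal floor.

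Sema3c, a class 3 member known from heart outflow and vessel development, had the highest level per length of the class, at 2449 and 4404 in basal and 2265 and 3677 in luminal libraries. The groups overlapped, and the limma log2 fold change of -0.19 ± 0.39 (SE) turned to 0.24 without basal replicate 3, 0.16 without luminal replicate 3, 0.12 when scaled to nuclear protein-coding genes and 0.16 after quantile normalization, so no direction is given. Sema3f was at 1159 and 825 in basal and 716 and 436 in luminal libraries, with separated groups and a log2 fold change of -0.81 ± 0.38 (SE, adjusted p of 0.336). Sema3b and Sema3d had overlapping groups.

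Class 4, membrane-bound ligands of the B plexins among others, had members past 2-fold in both directions. Sema4c, a ligand of Plxnb2, was at 808 and 883 in basal and 77 and 312 in luminal libraries (chr1:36548639-36558349, GRCm38). The basal pair was tight, and the luminal pair rested on 4 and 10 reads. Its limma log2 fold change was -2.44 ± 0.71 (SE, adjusted p of 0.156) and its edgeR adjusted p was 0.0361, which became 0.214 without luminal replicate 3. The ratio of averages of 4.35 was 2.71 without luminal replicate 3 and 10.98 without luminal replicate 2.

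Sema4d, the ligand of Plxnb1, had the reverse order to its receptor. It was at 163 and 136 in basal cells and at 310 and 467 in luminal cells, a ratio of luminal to basal averages of 2.60 that stayed between 2.07 and 3.12 without each library. The log2 fold change was 1.35 ± 0.49 (SE), and neither limma (adjusted p of 0.237) nor edgeR (0.208) called it. Sema4g was at 125 and 247 in basal and 465 and 280 in luminal cells, and its ratio of 2.00 was 1.51 without basal replicate 1 or luminal replicate 3, 2.98 without basal replicate 3 and 2.50 without luminal replicate 2. Sema4a, highest of the class per length, was at 1735 and 1000 in basal and 1743 and 1371 in luminal libraries. Its groups overlapped and its log2 fold change of 0.23 ± 0.35 (SE) turned to -0.17 without basal replicate 3. Sema4b was at 1259 and 825 in basal and 542 and 530 in luminal cells, a ratio just under 2 with separated groups (limma adjusted p of 0.232).

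Sema5a, a transmembrane semaphorin with thrombospondin repeats, had the highest level per length of the 20 semaphorins in basal cells (542 normalized reads per kb), and in luminal cells its 387 lay under Sema3c (416). It was at 8805 and 11446 in basal and 6041 and 8414 in luminal libraries, with groups separated by a narrow gap and a log2 fold change of -0.49 ± 0.28 (SE, adjusted p of 0.400). In class 6, membrane-bound ligands of the A plexins, Sema6d was at 3764 and 2072 in basal cells and at 97 and 467 in luminal cells (chr2:124089969-124667770, GRCm38). Both cell types were variable, and the lowest basal value was still more than 4 times the highest luminal one, which rested on 15 reads. The limma log2 fold change was -3.71 ± 0.78 (SE, adjusted p of 0.0705) and the edgeR adjusted p 0.0027, no higher than 0.0196 without any library. The ratio of averages of 10.3 ranged from 6.25 without luminal replicate 3 to 30.1 without luminal replicate 2.

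Sema6a was at 2317 and 1812 in basal and 1549 and 1215 in luminal libraries, separated but well under 2-fold (log2 fold change -0.58 ± 0.27, adjusted p of 0.332). Sema6b was past 2-fold toward luminal cells on values of 13, 19, 39 and 93, which amount to 2 or 3 reads in each library. Sema6c and Sema5b had overlapping groups. Sema7a, the lipid-anchored member that binds Plxnc1, was at 257 and 45 in basal and 58 and 0 in luminal libraries, and its groups overlapped. The ratio of averages of 5.21 was 1.55 without basal replicate 1, 2.60 without luminal replicate 2 and 8.86 without basal replicate 3. Of the 20 semaphorins, 19 passed the filter, 6 were past 2-fold toward basal and 3 toward luminal cells (4 and 2 of the 14 averaging 100 or more), and 3 were called by edgeR, all higher in basal cells (background 2.72%). Sema3e, Sema3g and Sema7a, past 2-fold toward basal cells, passed in basal cells only, and Sema6b, past 2-fold toward luminal cells, in luminal cells only. The fold shares of all genes were 16.3% and 18.3% (12.8% and 11.4% at that average), so the luminal counts were near the background.

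All 9 plexins passed the filter, Plxna4 and Plxnb3 through basal cells only. Past 2-fold were 4 toward basal cells and 1 toward luminal cells, or 3 and 1 of the 8 averaging 100 or more. The 4 included Plxna4 and Plxnb3, and the 3 included Plxna4. Against 16.3% and 18.3% of all genes, or 12.8% and 11.4% at that average, the luminal count was near the background. Plxnb1, the receptor of Sema4d, was at 3588 and 2787 in basal cells and at 310 and 187 in luminal cells (chr9:109095389-109119917, GRCm38). The basal values rested on 573 and 429 reads, the luminal values on 16 and 6, and the groups were far apart. The average was 12.8-fold higher in basal cells, 3188 ± 566 against 248 ± 86.97 normalized counts (SD, n = 2 each). The limma log2 fold change was -3.71 ± 0.36 (SE), with an adjusted p of 0.0372 by limma and 0.000288 by edgeR. The limma adjusted p passed 0.05 when any library was left out, at 0.192 and 0.156 without basal replicates 1 and 3 and 0.0814 and 0.0850 without luminal replicates 3 and 2, whereas the edgeR value was at most 0.0027. The gene model Gm7628 overlaps Plxnb1 on the other strand.

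Plxna1, a receptor shared by class 3 and class 6 semaphorins, had close replicates, 4697 and 4508 in basal and 1413 and 1184 in luminal libraries (chr6:89316314-89362620, GRCm38). The ratio of averages was 3.54, with a limma log2 fold change of -1.83 ± 0.23 (SE), a limma adjusted p of 0.0481 and an edgeR adjusted p of 0.0046. limma did not call it after median-ratio, nuclear protein-coding or quantile scaling. The limma value was 0.169 and 0.145 without basal replicates 1 and 3 and 0.0673 and 0.0891 without luminal replicates 3 and 2, and the edgeR value was at most 0.0194. Gm26811 and Gm44207 overlap the gene on the other strand. Plxna4 was at 313 and 500 in basal cells and at 0 and 31 in luminal cells, which is 1 luminal read, so it passed the filter in basal cells only. The pooled read ratio was 34.0 (95% interval 5.99 to 1354) and the edgeR adjusted p 0.0151, or 0.119 without luminal replicate 3. Antisense genes, Plxna4os1 to Plxna4os3, lie within this gene, and their reads may be mixed with it. Plxna3 and Plxna2 were not past 2-fold, at 777, 708, 929 and 561 for Plxna3 and 526, 617, 290 and 1122 for Plxna2 in the basal (1, 3) and then the luminal (3, 2) libraries, and the groups of both overlapped.

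Plxnb2, an epithelial receptor of Sema4c, had the highest level per length of the 9 plexins, 556 and 305 normalized reads per kb in basal and luminal cells. It was at 4816 and 3774 in basal and 2904 and 1807 in luminal libraries, separated and under 2-fold (log2 fold change -0.90 ± 0.31 SE, adjusted p of 0.218). Plxnb3 was at 169 and 149 in basal cells and at 19 and 0, a single read, in luminal cells, with a pooled read ratio of 13.4 (95% interval 2.30 to 539). In all 3 B plexins the basal libraries were above the luminal ones, an order found in 27.3% of all genes, with averages 1.82-fold apart in Plxnb2 and 12.8-fold apart in Plxnb1. Plxnd1, the receptor of Sema3e, was at 745 and 909 in basal and 232 and 717 in luminal libraries, a ratio of 1.74 that was 1.15 without luminal replicate 3 and 3.56 without luminal replicate 2. Plxnc1 was past 2-fold toward luminal cells through luminal replicate 2 only, at 113 and 117 in basal cells and at 116 and 561 in luminal replicates 3 and 2, and its luminal to basal ratio of 2.94 was 1.01 without that library and 4.88 without luminal replicate 3.

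Neither neuropilin was past 2-fold. Nrp2, a co-receptor preferred by Sema3f, was at 1052 and 572 in basal and 1377 and 1558 in luminal libraries. Both luminal values lay above both basal ones, with a log2 fold change of 0.92 ± 0.37 (SE, limma adjusted p of 0.269, edgeR 0.208). The ratio of luminal to basal averages of 1.81 was 2.57 without basal replicate 1 and 1.39 without basal replicate 3. Nrp1, the co-receptor of Sema3a, was at 369 and 799 in basal and 445 and 935 in luminal cells, with overlapping groups and a log2 fold change of 0.25 ± 0.56 (SE).

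**Figure D3:**
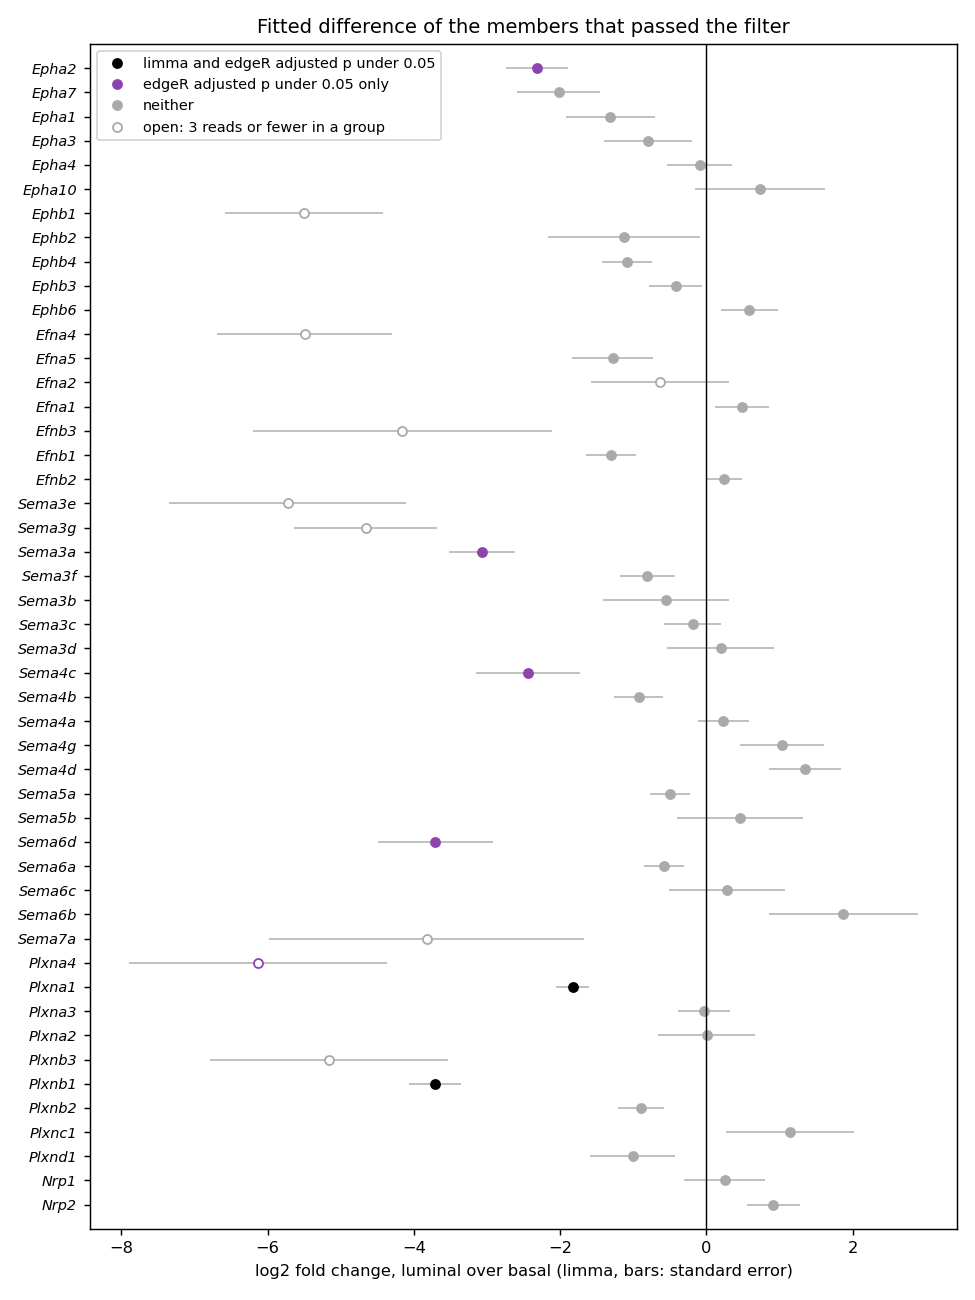
limma log2 fold change of luminal over basal with its standard error for the 48 members that passed the filter, so that bars left of 0 are higher in basal cells. Black marks the 2 genes called by limma and edgeR, purple those called by edgeR alone, and open points genes with 3 reads or fewer in a cell type, whose position depends on the added count of 1. The estimates were below 0 for 33 genes and above 0 for 15.

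Of the 48 members that passed, 19 were higher in basal replicate 3 than in basal replicate 1 and higher in luminal replicate 2 than in luminal replicate 3, against 23.4% of all genes kept, a count made after the values were seen. They included 8 of the 20 members past 2-fold toward basal cells (Epha7, Epha1, Ephb2, Ephb4, Efna5, Efnb3, Sema4c and Plxna4, the last 2 called by edgeR) and 2 of the 4 past 2-fold toward luminal cells (Sema6b and Plxnc1). Nrp1, Sema3d, Sema3c and Epha4 were among the others. Sema3d was at 175 and 338 in basal and 155 and 499 in luminal replicates 3 and 2, and Epha4 at 451, 734, 407 and 717 in the same order of libraries. The fibroblast sum had the same order, as given above, and the smooth muscle sum of 5 genes was at 29403, 50505, 9635 and 57618. The part of these cells in the values was not tested. The endothelial sum of 5 genes lay between 581 and 1745, the immune sum of 5 genes between 814 and 3030 with Ptprc at 150 and 6 in basal and 0 in both luminal libraries, and the neuroendocrine sum of 3 genes at 19, 26, 484 and 0. Of the 7 members called by edgeR, Plxnb1, Plxna1, Sema3a and Sema6d were higher in basal replicate 1 than in basal replicate 3, and Epha2, Sema4c and Plxna4 were higher in basal replicate 3.

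**Figure D4:**
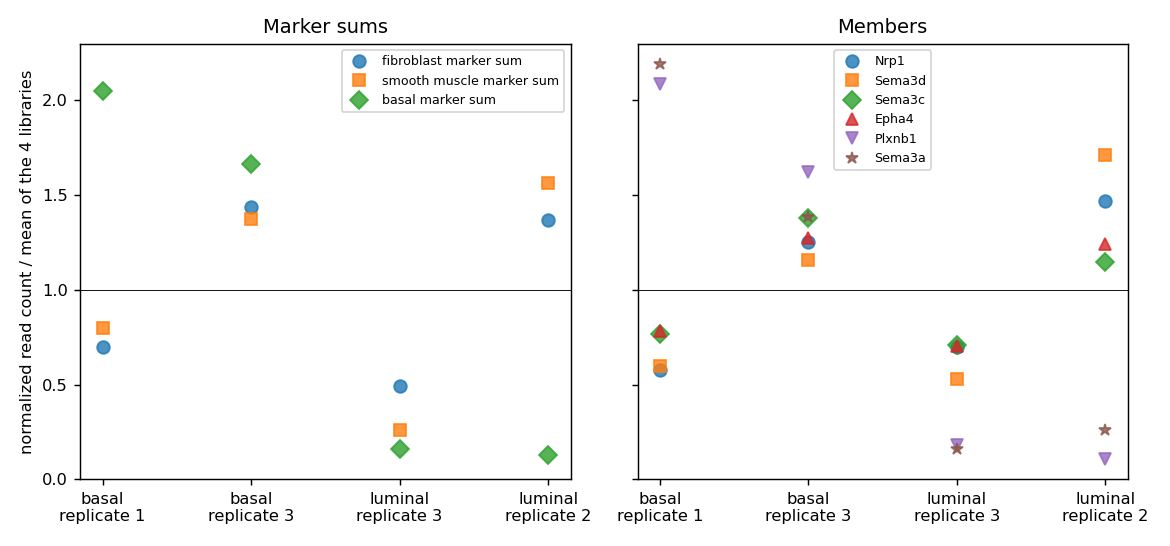
Summed marker lists (left) and 6 members (right) in each library, as normalized read count divided by the mean of the 4 libraries. The fibroblast and smooth muscle sums, Nrp1, Sema3d, Sema3c and Epha4 are above 1 in basal replicate 3 and luminal replicate 2, while the basal marker sum, Plxnb1 and Sema3a are above 1 in both basal libraries and far below it in both luminal ones.

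Other genes of axon guidance and of Eph and plexin signalling were taken from a list of 79, of which 77 were found in the table and 70 passed the filter. By the ratio of averages 20 were past 2-fold toward basal cells and 7 toward luminal cells, or 18 and 5 of the 62 averaging 100 or more, and their median log2 fold change was -0.59. The 20 included Robo4, which passed the filter in basal cells only, and the 7 included Unc5d, which passed in luminal cells only. Over all genes kept the shares were 16.3% and 18.3%, or 12.8% and 11.4% at that average, and the median was -0.10. Without luminal replicate 3 the basal count was 13, and without luminal replicate 2 it was 30. limma called 0 of them (background 0.438% and 0.256% toward basal and luminal cells), with 22 toward basal cells and 4 toward luminal cells at an unadjusted p under 0.05 (background 10.7% and 7.82%), and edgeR called 6 higher in basal cells (background 2.72%) and 1 higher in luminal cells (background 2.42%). The edgeR calls toward basal cells were Vav3, Met, Rgmb, Mical3, Src and Ptk7, and the call toward luminal cells was Mical2. DESeq2 called 5 higher in basal cells (background 2.89%), Vav3, Met, Rgmb, Mical3 and Hspg2, and 0 in luminal cells (background 2.80%). Its adjusted p was 0.110 for Src, 0.0621 for Ptk7 and 0.0610 for Mical2. Vav3 and Met kept an edgeR adjusted p under 0.05 without each library, at most 0.00997 and 0.0134. Mical2 was not called when any library was left out (0.0823 to 0.131). Rgmb and Src were not called without basal replicate 1 (0.168 and 0.260) or without either luminal library (0.0592 to 0.147). Mical3 was not called without basal replicate 1 or luminal replicate 3 (0.0733 and 0.131), and Ptk7 without basal replicate 3 or luminal replicate 3 (0.0780 and 0.221).

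Among the partners of semaphorin receptors, 6 of 12 were past 2-fold toward basal cells and 1 toward luminal cells (16.3% and 18.3% of all genes). Met, the receptor of hepatocyte growth factor and a known partner of the B plexins, was at 5793 and 5866 in basal and 1626 and 966 in luminal libraries, with an edgeR adjusted p of 0.0033 and a limma adjusted p of 0.0592. Hspg2, the basement membrane proteoglycan perlecan, was at 20685 and 26490 in basal and 3098 and 11904 in luminal cells. Itga1, the alpha subunit of a collagen-binding integrin, was at 1008 and 1143 in basal and 58 and 810 in luminal cells. The basal pairs of these 3 genes were close and the luminal pairs were spread.

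Among the effectors of Eph receptors, 4 of the 16 that passed were past 2-fold toward basal cells and 2 toward luminal cells (16.3% and 18.3% of all genes). Vav3, an exchange factor for small GTPases, was at 3895 and 2683 in basal and 620 and 343 in luminal libraries (edgeR adjusted p of 0.0016). Grb7, an adaptor, was at 269 and 305 in basal and 891 and 530 in luminal cells, and Pick1, a PDZ-domain protein, at 413 and 175 against 1142 and 686. Among the plexin effectors, 5 of 24 were past 2-fold toward basal cells and 1 toward luminal cells, near the 16.3% of all genes on the basal side. Mical2, a flavin monooxygenase acting on actin, was at 413 and 331 in basal and 929 and 1247 in luminal libraries (edgeR adjusted p of 0.0331), and its relative Mical3 at 5937 and 4476 against 1355 and 2400. The small GTPases Rac1 and Rhoa, which most of these receptors use, were under 2-fold, with log2 fold changes of -0.26 ± 0.21 and -0.67 ± 0.21 (SE).

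Among the remaining guidance systems, the repulsive guidance molecule Rgmb was at 833 and 448 in basal and 97 and 125 in luminal libraries (edgeR adjusted p of 0.0230). Of the netrin receptors, Unc5b was at 701 and 500 in basal and 155 and 218 in luminal cells, whereas Unc5c was at 94 and 370 in basal and 503 and 1465 in luminal cells. Neither passed the edgeR threshold, with adjusted p of 0.0767 and 0.0991. Of the Slit and Robo genes, 3 of the 8 that passed were past 2-fold toward basal cells and 1 toward luminal cells (16.3% and 18.3% of all genes). Robo4, among the 3, was at 25 and 19 in basal and 0 in both luminal libraries. It passed the filter in basal cells only, with a basal average under the luminal floor of 75.8. Srgap1, the gene toward luminal cells, had overlapping groups, at 19 and 162 in basal and 97 and 436 in luminal libraries. Dcc, the netrin receptor, was at 0 in all 4 libraries.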

How the data were processed

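Per the methods and the submitters' processing notes, the authors aligned reads of NuGen Ovation SoLo libraries to GRCm38 (mm10) with STAR, counted them on Ensembl release 87 genes with HTSeq, and used Picard; versions, counting mode and use of strand are not given in the sources used here. The deposited signal is the count per gene scaled by the authors to a fixed total of aligned reads and rounded, without the filter on low values, and all columns were mapped to samples (0 not mapped). Of the 49671 genes, 21799 had a value of 0 in every library.

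The worth of 1 read was estimated from how low values, up to 60 reads, are spaced. With a tolerance of 0.1 read, 97.9% to 99.0% of these values were whole, and division gave 643268 to 3194246 reads per library. In luminal replicate 2 a further set of values lay on another spacing (530 genes over the table, no member among them). Genes at 10 or more in each library of a cell type, with an average of 20 or more there, were kept (18737). Fold calls used ratios of averages at 2 and 0.5. A model on log2(value + 1) with a trended prior was fitted in limma 3.58.1, and recovered reads were fitted in edgeR 4.0.16 and DESeq2 1.42.0, all with Benjamini-Hochberg adjustment at 0.05. limma was the main test because the deposited unit is normalized, and edgeR calls are an alternative. limma fold changes are on the log2(value + 1) scale and depend on the added 1 where values are low. They understate changes of low genes with reads in every library and can exceed the log2 ratio of averages where a library is at 0. Intervals are exact at 95% and floors are 3 reads. Levels per kb use the union of exons in GENCODE's GRCm38 annotation, which held 49412 of the gene identifiers.

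The members, the lists and the rules for naming genes (members called by limma or edgeR, members averaging 100 or more past 2-fold without overlap, the highest per length in each family, and up to 6 other guidance genes in each direction) were chosen with earlier results of these data known. Genes named outside the rule were chosen after their values were seen. 1 further list of marker genes is not reported here. The scripts were tested on simulated data. Other filters, pseudocounts, scalings and models were tried, and each library was left out in turn. R 4.3.3, Python 3.11.15, numpy 2.4.6, pandas 2.3.3, scipy 1.17.1 and matplotlib 3.10.9 were used.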

Additional observations from a re-analysis of the deposited data

How the results depend on the processing

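The count of members called by limma toward basal cells, 2 as reported, was 0 with no filter, 5 with the filter asked of both cell types, 5 at an average of 100 or more, 5 with a pseudocount of 10, 1 after median-ratio scaling, 1 after scaling to nuclear protein-coding genes and 0 to 3 without each library, where the calls were Ephb1, Efna4 and Sema3g, at 0 in both luminal libraries, and never Plxnb1 or Plxna1. Plxna1 was not called after median-ratio, nuclear protein-coding or quantile scaling either. The 5 were Plxnb1, Plxna1, Epha2, Sema3a and Sema6d each time. Over all genes and in either direction, limma called 130 of 18737 as reported and 0 of 27872 with no filter. It called 678 of 14953 with the filter asked of both cell types and 532 of 12551 at an average of 100 or more. With a pseudocount of 10 it called 531 of 18737, after median-ratio scaling 107 of 18737 and after nuclear protein-coding scaling 129 of 18619. The count of members was 7 with edgeR, 7 with DESeq2 and 7 with edgeR without the genes on another spacing (this last alternative and the edgeR fits without each library were chosen after seeing the data). The edgeR count ranged from 4 (without luminal replicate 3) to 9 without each library. Members past 2-fold toward basal cells numbered 12 with the filter asked of both cell types, 17 after scaling to nuclear protein-coding genes (with 6 toward luminal cells) and 18 to 22 without each library, and 12 of the 17 that were not at 0 in both luminal libraries were past 2-fold without each library in turn. The other guidance genes past 2-fold toward basal cells numbered 13 to 30 without each library. The filter asked of both cell types was passed by 39 members. The all-gene shares of 16.3% and 18.3% past 2-fold belong to the main filter and scaling, and those under the other settings are not given here. The members' median log2 fold change was -0.55 with the stricter filter, -0.49 after scaling to nuclear protein-coding genes (under which the all-gene median was 0.22 instead of -0.10) and -0.73 to -0.56 without each library. The signs of Epha4, Sema3c and Plxna3 changed with the scaling. Sema3c was at 0.12 after scaling to nuclear protein-coding genes, 0.16 after quantile normalization and -0.61 to 0.24 without each library, and Sema4a at -0.17 to 0.63 without each library. The cause of these changes was not tested. No paired analysis was possible because the cell types share replicate number 3 only. Luminal depth limits the members at 3 luminal reads or fewer.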
